A study of Arabidopsis thaliana with 6 samples.

Results

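Salicylic acid is a phenolic defence hormone of plants, and 10 genes of its pathway were followed here in Arabidopsis stems of the hdt1 mutant and the wild type. They were taken by gene identifier: ICS1, EDS5, SARD1, CBP60G, EDS1, PAD4, NPR1, PR1, PR2 and PR5. All 10 were found among the 33690 features of the expression table, and 9 of them (all but PR1) were among the 17906 genes kept for testing, which reached at least 1 FPKM in at least 3 libraries. FPKM scales the fragments of a gene by its transcript length and by the library total.

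In the pathway as it is known from Arabidopsis leaves, ICS1 makes isochorismate in the plastid, EDS5 exports it, and the hormone is completed in the cytosol. The related transcription factors SARD1 and CBP60G switch on ICS1, and the lipase-like proteins EDS1 and PAD4 act together upstream of its induction. NPR1 is a receptor and coactivator of the hormone, and the secreted pathogenesis-related proteins PR1, PR2 and PR5 are its usual readouts. The same hormone is known to accumulate in ageing leaves.

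The study sequenced stem RNA of hdt1 and wild-type plants to ask which transcripts depend on HDT1, a plant-specific histone deacetylase of the HD2 family. The hdt1 group was 3 libraries from plants with a T-DNA insertion in HDT1, and the wild-type group was 3 libraries from Columbia plants. Both groups were untreated main stems taken 35 days after flowering, when the stems were yellowing, with flowers and leaves removed. The study used a pair of insertion lines and the sample labels do not say which was sequenced, so no second allele can be compared. The table numbers the libraries 1, 2 and 4 within each genotype. The study's methods describe triplicates whereas the series description denies replication, and nothing says that the libraries came from separate plants. The p-values therefore speak only of the spread among these libraries, and that spread may be technical.

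HDT1 itself checked the labels. It measured 4.97, 19.8 and 20.5 FPKM in hdt1 libraries 1, 2 and 4, against 53.3, 65.3 and 56.9 FPKM in wild-type libraries 1, 2 and 4, so it was lower in each hdt1 library (log2 fold change -2.10 ± 0.51 SE, adjusted p 0.269 by limma). HDT1 shares 315 bases with AT3G44740 on the other strand (7.77 FPKM on average), so part of its value is uncertain. Between 42017320 and 44781274 reads were recovered from the hdt1 libraries and between 40104563 and 42941132 from the wild-type libraries. Library 1 stood apart in both genotypes. The median absolute log2 difference between library 1 and the mean of libraries 2 and 4 was 0.45 in hdt1 and 0.47 in the wild type, whereas libraries 4 and 2 differed by 0.10 in hdt1 and 0.09 in the wild type. Between the genotypes the median absolute log2 difference over all genes kept was 0.20 within library 1 and 0.39 within libraries 2 and 4. For this reason the members' differences were also computed separately in library 1 and in the pair of libraries 2 and 4. The seed storage genes CRA1 and SESA4 were listed at 0 in all hdt1 libraries and in wild-type library 1, but summed to 113 and 107.5 FPKM in wild-type libraries 2 and 4. The xylem markers CESA4, CESA7, CESA8 and XCP1 were higher in each hdt1 library, with sums of 45.2 to 75.6 FPKM in hdt1 and 10.5 to 26.3 FPKM in the wild type. The phloem markers SUC2 and APL summed to 160 to 167 FPKM in hdt1 and 97.9 to 121 FPKM in the wild type. A further set of markers differed mainly between library 1 and the other libraries. The epidermis markers FDH, CER6 and ATML1 summed to 227 FPKM in hdt1 and 239.6 FPKM in the wild type in library 1, and to 54.5 to 57.1 FPKM in hdt1 and 92.9 to 101 FPKM in the wild type in libraries 2 and 4. RBCS1A and CAB3, of photosynthetic tissue, summed to 2654 FPKM in hdt1 and 2871 FPKM in the wild type in library 1, and to 1175 to 1224 FPKM in hdt1 and 1403 to 1407 FPKM in the wild type in libraries 2 and 4. Flower markers stayed below 0.63 FPKM in sum, with A9 at 0 in all libraries. The part that these tissue markers play in the results was not tested, and in bulk stems fewer cells of a type and less RNA per cell cannot be told apart.

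Of the 9 members kept, 0 were called at an adjusted p under 0.05 by limma over all 17906 genes, where 0 genes (0%) were called and limma voom on recovered reads called 0 as well. At an unadjusted p under 0.05, 2 members (ICS1 and EDS5) were higher in hdt1 and 0 were lower, beside 7.78% of all genes higher and 5.96% lower. In 2 members, the same pair, each hdt1 library was above each wild-type library, beside 8.50% of all genes. In 1 member (SARD1) each hdt1 library was below each wild-type library, beside 10.9% of all genes. With the split of library 1 from libraries 2 and 4 as a term, limma called 1 member (PR5, lower) and 6.34% of all genes. On libraries 2 and 4 alone it called 7 members, 3 higher and 4 lower, beside 65.9% of all genes. As fractions of 9, the counts of 2 and 7 lay above these shares, but they rest on few genes and the difference was not tested. The 9 members had a median log2 fold change of -0.09, beside -0.08 over all genes kept.

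**Figure D1:**
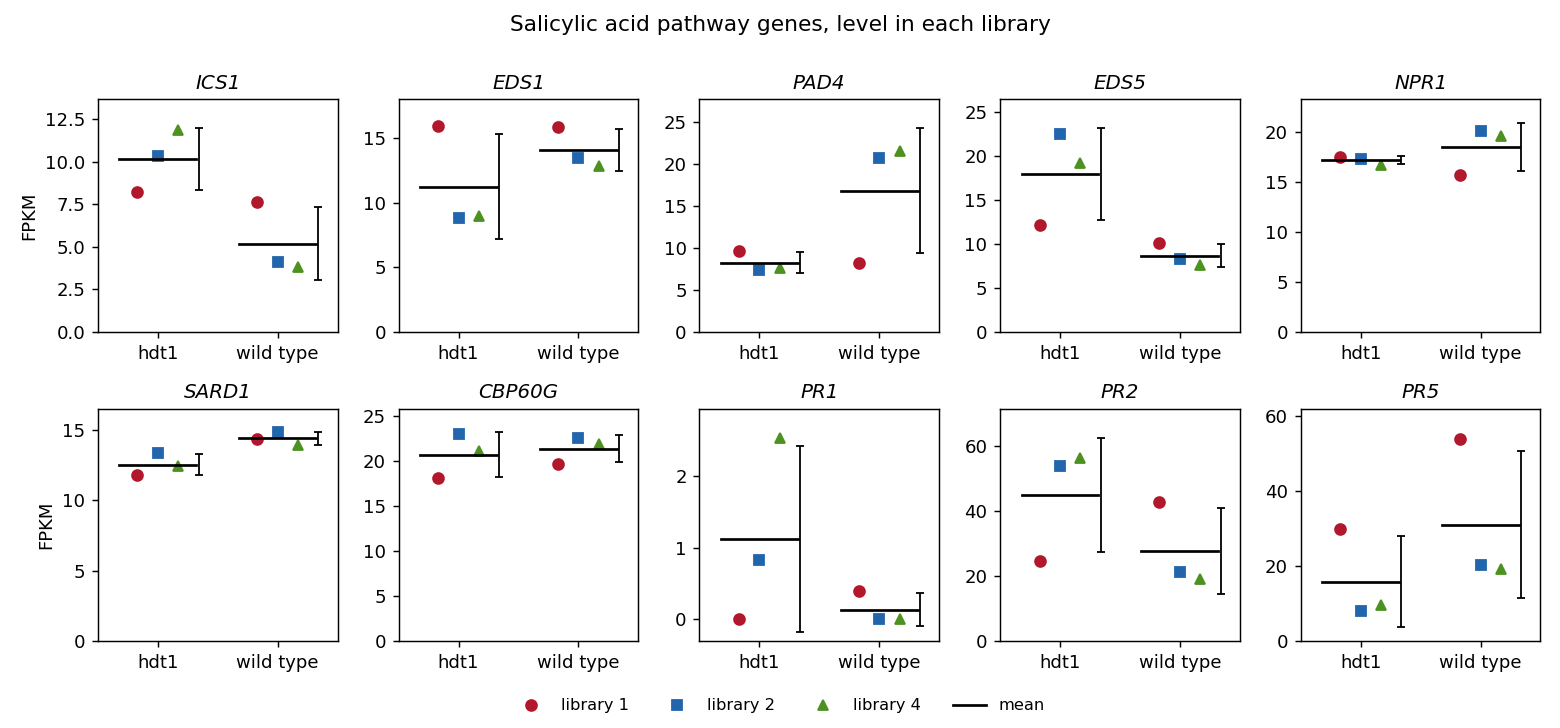
FPKM of the 10 salicylic acid pathway genes in each library, with hdt1 left of the wild type in each panel. Points are libraries 1, 2 and 4, the line is the mean and the bar is the SD over the 3 libraries, which reaches below 0 for PR1. ICS1 and EDS5 lie higher in each hdt1 library, and PAD4, PR2 and PR5 differ widely between libraries of one genotype.

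The plot of values by library shows how the levels were ordered. In hdt1 the order of mean FPKM was PR2 (45.0 ± 17.6), CBP60G (20.8 ± 2.48), EDS5 (18.0 ± 5.28), NPR1 (17.2 ± 0.393), PR5 (15.8 ± 12.1), SARD1 (12.6 ± 0.769), EDS1 (11.2 ± 4.05), ICS1 (10.2 ± 1.82), PAD4 (8.24 ± 1.25) and PR1 (1.13 ± 1.30) (SD, n = 3 each). Only PR2 and CBP60G, and PAD4 and PR1, were neighbours whose libraries did not overlap there. In the wild type the order was PR5 (31.1 ± 19.7), PR2 (27.8 ± 13.2), CBP60G (21.4 ± 1.49), NPR1 (18.5 ± 2.41), PAD4 (16.9 ± 7.46), SARD1 (14.4 ± 0.454), EDS1 (14.1 ± 1.60), EDS5 (8.69 ± 1.26), ICS1 (5.19 ± 2.16) and PR1 (0.134 ± 0.232) (SD, n = 3 each). Only EDS1 and EDS5, and ICS1 and PR1, were neighbours whose libraries did not overlap there.

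ICS1 and EDS5, the genes for synthesis and export of the precursor, were the members with each hdt1 library above each wild-type library. The windows of 250 bases upstream of the annotated gene starts of these genes, and of SARD1 and PR5, are shown because in these genes the genotypes did not overlap or the split term gave a call. They come from TAIR10.1 as RefSeq annotates it, run 5′ to 3′ on the gene's strand, and carry capitals where a searched motif matched on either strand. The motifs were TGACG (bound by TGA factors), TTGAC (the core bound by WRKY factors), GAAATTT (bound by CBP60G and SARD1) and CGCG (the core bound by CAMTA factors). The windows lie at chr1:28070045-28070294 (plus strand), chr4:18185187-18185436 (plus strand), chr1:27749249-27749498 (minus strand) and chr1:28177420-28177669 (plus strand), and no annotated gene covers any of them.
ICS1: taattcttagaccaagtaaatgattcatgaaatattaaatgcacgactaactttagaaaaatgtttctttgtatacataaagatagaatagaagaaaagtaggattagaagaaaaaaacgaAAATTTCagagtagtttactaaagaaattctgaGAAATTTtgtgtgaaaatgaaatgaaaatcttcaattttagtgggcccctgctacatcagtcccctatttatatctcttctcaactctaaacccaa
EDS5: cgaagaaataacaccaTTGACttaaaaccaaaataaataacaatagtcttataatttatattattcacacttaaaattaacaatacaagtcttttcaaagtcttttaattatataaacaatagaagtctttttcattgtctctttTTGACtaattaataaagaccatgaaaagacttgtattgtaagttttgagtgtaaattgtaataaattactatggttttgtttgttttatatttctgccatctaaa
SARD1: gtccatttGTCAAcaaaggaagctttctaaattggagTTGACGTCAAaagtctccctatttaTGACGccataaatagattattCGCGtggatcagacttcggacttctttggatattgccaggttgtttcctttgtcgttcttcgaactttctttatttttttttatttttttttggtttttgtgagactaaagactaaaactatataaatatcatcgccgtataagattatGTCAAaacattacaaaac
PR5: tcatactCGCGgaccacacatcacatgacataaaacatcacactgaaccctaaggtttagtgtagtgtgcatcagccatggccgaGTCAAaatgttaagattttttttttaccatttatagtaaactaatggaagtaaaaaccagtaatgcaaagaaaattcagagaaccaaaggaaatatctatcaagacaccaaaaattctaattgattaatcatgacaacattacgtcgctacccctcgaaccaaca

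GAAATTT was found in 1 of 10 members, ICS1, at 129 and 96 bases upstream, and in 12.5% of 26711 promoters of the same length. TTGAC was found in 5 members (EDS1, EDS5, SARD1, PR1 and PR5) and in 45% of promoters. CGCG was found in 2 members (SARD1 and PR5) and in 10.1% of promoters, and TGACG only in SARD1 among the members, 3 times, and in 18.6% of promoters. In the SARD1 window TGACG and TTGAC overlap. A match describes letters only.

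ICS1 (AT1G74710, chromosome 1, 28070295 to 28074177, plus strand, 13 coding exons) encodes isochorismate synthase, the committed step of most of the plant's salicylic acid. It measured 8.24, 10.3 and 11.9 FPKM in hdt1 libraries 1, 2 and 4, against 7.67, 4.10 and 3.80 FPKM in wild-type libraries 1, 2 and 4. The genotypes did not overlap, though library 1 of both lay close together. The log2 fold change was 0.89 ± 0.28 (SE), with an adjusted p of 0.301 by limma. Within library 1 the log2 difference was 0.09, and within libraries 2 and 4 it was 1.29, a ratio of 2.81 in FPKM.

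EDS5 (AT4G39030, chromosome 4, 18185437 to 18189224, plus strand, 12 coding exons) encodes the plastid exporter of isochorismate. It measured 12.2, 22.5 and 19.2 FPKM in hdt1 libraries 1, 2 and 4, against 10.1, 8.33 and 7.65 FPKM in wild-type libraries 1, 2 and 4. Each hdt1 library was higher. The log2 fold change was 0.93 ± 0.26 (SE), with an adjusted p of 0.287 by limma, and the difference was 0.25 within library 1 and 1.28 within libraries 2 and 4. EDS5 shares 213 bases with AT4G39040 on the other strand, which averaged 27.9 FPKM. The sources do not say whether the counting used strand, so reads in that overlap cannot be assigned with certainty.

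Most other synthesis and metabolism genes that were kept had negative log2 fold changes, without passing the test, as had 58.6% of all genes kept. PBS3, which conjugates isochorismate to glutamate, measured 3.11, 3.83 and 4.67 FPKM in hdt1, against 4.07, 1.11 and 1.34 FPKM in the wild type, so library 1 had the opposite order to libraries 2 and 4. EPS1, which speeds the final step, measured 9.39, 2.85 and 2.65 FPKM in hdt1, against 11.7, 5.37 and 5.56 FPKM in the wild type. In DMR6, a salicylic acid hydroxylase, each hdt1 library was below each wild-type library, beside 10.9% of all genes. BSMT1 and UGT76B1, too low to be kept, had each hdt1 library above each wild-type library. BSMT1 measured 0.0932, 1.90 and 1.31 FPKM in hdt1, against 0.0330, 0 and 0.0347 FPKM in the wild type. UGT76B1 measured 0.0892, 0.996 and 0.887 FPKM in hdt1, against 0.0633, 0 and 0 FPKM in the wild type. Their library 1 values rest on at most 6 reads. Of 12 genes on this list 7 were kept, 6 of them with a negative log2 fold change, and their median was -0.29. At an unadjusted p under 0.05 in limma 0 of the 7 passed, beside 7.78% of all genes higher and 5.96% lower.

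SARD1 and CBP60G, the regulators of ICS1, differed little. SARD1 (AT1G73805, chromosome 1, 27744790 to 27749248, minus strand, 7 coding exons) measured 11.8, 13.4 and 12.5 FPKM in hdt1 libraries 1, 2 and 4, against 14.4, 14.9 and 14.0 FPKM in wild-type libraries 1, 2 and 4. The genotypes did not overlap, and the hdt1 libraries were lower, but they overlapped under median-ratio scaling and under quantile normalization. The log2 fold change was small, at -0.19 ± 0.14 (SE, adjusted p 0.571 by limma), and was -0.26 within library 1 and -0.15 within libraries 2 and 4. SARD1 shares 640 bases with AT1G73790 on the other strand (17.8 FPKM on average), so part of its value is uncertain.

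CBP60G (AT5G26920, chromosome 5, 9475679 to 9478777, plus strand, 6 coding exons) is calmodulin-binding, unlike SARD1. It measured 18.1, 23.0 and 21.2 FPKM in hdt1 libraries 1, 2 and 4, against 19.7, 22.6 and 21.9 FPKM in wild-type libraries 1, 2 and 4. The groups overlapped, with a log2 fold change of -0.05 ± 0.16 (SE), which was 0.03 under median-ratio scaling.

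Among 9 other CBP60 and CAMTA factors the median log2 fold change was 0.01, and CBP60F differed most. CBP60F measured 11.1, 48.5 and 53.6 FPKM in hdt1, against 6.16, 12.1 and 9.55 FPKM in the wild type, with a log2 fold change of 1.68 ± 0.61 (SE, adjusted p 0.323 by limma). CBP60E measured 2.50, 2.61 and 2.61 FPKM in hdt1, against 2.06, 4.92 and 5.04 FPKM in the wild type. Of the 9 genes, all kept, 1 (CBP60F) was higher at an unadjusted p under 0.05 in limma and 0 were lower. The shares of all genes were 7.78% and 5.96%. The split term called 2, CBP60A and CBP60F, both higher, beside 6.34% of all genes.

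EDS1 and PAD4 form a complex that promotes salicylic acid accumulation. PAD4 (AT3G52430, chromosome 3, 19431095 to 19434450, plus strand, 2 coding exons) measured 9.68, 7.41 and 7.63 FPKM in hdt1 libraries 1, 2 and 4, against 8.25, 20.7 and 21.6 FPKM in wild-type libraries 1, 2 and 4. Wild-type library 1 lay within the hdt1 range, and wild-type libraries 2 and 4 lay above it. The log2 fold change was -0.85 ± 0.37 (SE, adjusted p 0.380 by limma), made up of 0.21 within library 1 and -1.38 within libraries 2 and 4, where the FPKM ratio was 0.356.

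EDS1 (AT3G48090, chromosome 3, 17755329 to 17758147, minus strand, 4 coding exons) measured 15.9, 8.79 and 8.99 FPKM in hdt1 libraries 1, 2 and 4, against 15.9, 13.5 and 12.8 FPKM in wild-type libraries 1, 2 and 4. The genotypes overlapped through library 1, which was alike in both. Over all libraries the log2 fold change was -0.34 ± 0.26 (SE, adjusted p 0.567 by limma), with -0.52 within libraries 2 and 4. The near copy EDS1B, 84% identical in its aligned coding bases, measured between 1.15 and 1.67 FPKM in hdt1 and between 1.01 and 1.61 FPKM in the wild type, and the 2 genes could exchange reads.

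At an unadjusted p under 0.05 in limma, 7.78% of all genes were higher and 5.96% were lower. Of the 7 other genes of EDS1 partners and helper NLRs, 0 were higher and 1 was lower at that threshold. That gene, ADR1-L2, a helper immune receptor, measured 39.9, 28.7 and 29.9 FPKM in hdt1, against 40.9, 52.9 and 47.6 FPKM in the wild type. Its relative ADR1-L1 measured 34.1, 63.1 and 62.7 FPKM in hdt1, against 32.3, 45.5 and 43.9 FPKM in the wild type, which is the opposite direction in each pair of libraries.

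**Figure D2:**
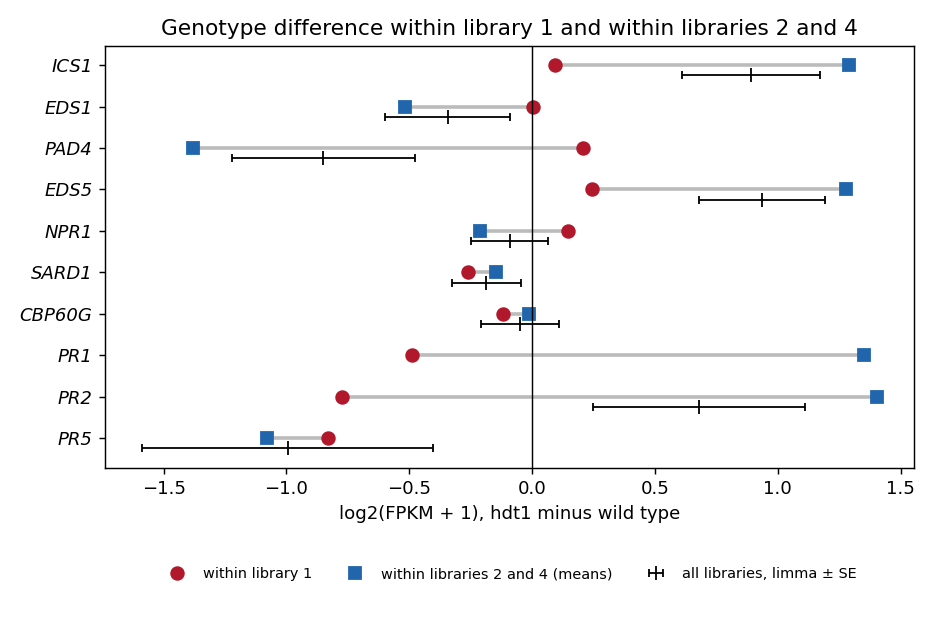
Difference of log2(FPKM + 1), hdt1 minus wild type, of each member within library 1, within libraries 2 and 4, and as the limma fold change with its SE over all 6 libraries. PR1, not kept for testing, has no limma value. ICS1, EDS5, PAD4, PR1 and PR2 differ between the library sets by over 1 on the log2 scale, while PR5 is lower in hdt1 in both.

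NPR1 (AT1G64280, chromosome 1, 23852748 to 23855658, minus strand, 4 coding exons) differed little between the genotypes. It measured 17.5, 17.4 and 16.8 FPKM in hdt1 libraries 1, 2 and 4, against 15.8, 20.1 and 19.7 FPKM in wild-type libraries 1, 2 and 4. The wild-type libraries lay on both sides of the hdt1 libraries. Its log2 fold change was -0.09 ± 0.16 (SE, adjusted p 0.814 by limma). On the other strand NPR1 shares 214 bases with the noncoding RNA gene AT1G08667 and 38 bases with AT1G64270 (11.8 FPKM on average). Part of the NPR1 value is therefore uncertain.

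Among the receptors, NIMIN proteins and TGA factors that work with NPR1, the NPR1-interacting protein NIMIN3 passed an unadjusted p under 0.05, higher in hdt1. It measured 37.8, 36.2 and 33.8 FPKM in hdt1, against 29.2, 21.5 and 18.9 FPKM in the wild type. NIMIN2 measured 12.6, 39.2 and 40.9 FPKM in hdt1, against 16.2, 12.7 and 11.4 FPKM in the wild type, so library 1 was in the other order. TGA1 measured 27.4, 35.5 and 34.4 FPKM in hdt1, against 30.9, 54.7 and 55.0 FPKM in the wild type. Of the 12 genes, all kept, 1 was higher and 0 were lower at an unadjusted p under 0.05 in limma. The shares of all genes were 7.78% and 5.96%. The split term called 2 of the 12, NPR3 and NIMIN3, both higher, beside 6.34% of all genes.

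PR1, PR2 and PR5, the classical outputs, did not share a direction. PR1 (AT2G14610, chromosome 2, 6241640 to 6242541, minus strand, 1 coding exon) was nearly silent, which kept it out of the test. Its recovered reads numbered 0, 27 and 82 in hdt1 libraries 1, 2 and 4, against 13, 0 and 0 in wild-type libraries 1, 2 and 4. In FPKM these were 0, 0.835 and 2.54 in hdt1, against 0.402, 0 and 0 in the wild type. Reads were thus found in opposite libraries of the genotypes. The intervals of hdt1 library 2 (0.55 to 1.22 FPKM) and hdt1 library 4 (2.02 to 3.16 FPKM, 95% Poisson, counting error only) do not overlap. Over all genes these libraries also differed by more than counting noise, with a median chi-square per gene of 2.36 against 0.455 from counting alone. Within libraries 2 and 4 the hdt1 mean was 1.69 FPKM, 17.9 times the 0.0942 FPKM that 3 reads per library would give in the wild type. This ratio to a set floor is not a lower limit. The 95% Poisson intervals for 0 reads reached 0.112 and 0.120 FPKM in wild-type libraries 2 and 4. In library 1 PR1 had 0 reads in hdt1 against 13 in the wild type, so the direction depended on the library. The relative PRB1, 83.5% identical in coding bases, was listed at 0 in all libraries.

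PR2 (AT3G57260, chromosome 3, 21188397 to 21189967, minus strand, 2 coding exons), a beta-1,3-glucanase, measured 24.7, 53.8 and 56.6 FPKM in hdt1 libraries 1, 2 and 4, against 43.0, 21.5 and 19.0 FPKM in wild-type libraries 1, 2 and 4. Library 1 was lower in hdt1 and libraries 2 and 4 were higher, so the genotypes overlapped. The log2 difference was -0.77 within library 1 and 1.41 within libraries 2 and 4, and the log2 fold change over all was 0.68 ± 0.43 (SE, adjusted p 0.510 by limma). SAG12, a protease gene used as a senescence marker and named after its values were seen, was likewise lower in hdt1 within library 1 and higher within libraries 2 and 4, with 43.0, 63.3 and 64.8 FPKM in hdt1, against 80.8, 32.5 and 28.8 FPKM in the wild type. The senescence factors NAP and ORE1 had the opposite order in both library sets, and NYE1 was lower in hdt1 in both. SWEET15 and SAG13 had the order of SAG12, though the SAG13 values in library 1 were close. SWEET15, not kept for testing, measured 0.0170, 15.5 and 13.9 FPKM in hdt1, against 0.325, 0.195 and 0.265 FPKM in the wild type. The 6 senescence markers summed to 351 to 407 FPKM in hdt1 and 213 to 386 FPKM in the wild type, and their part in the values of PR2 was not tested.

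PR5 (AT1G75040, chromosome 1, 28177670 to 28179022, plus strand, 2 coding exons), a thaumatin-like protein, measured 29.8, 8.11 and 9.59 FPKM in hdt1 libraries 1, 2 and 4, against 53.8, 20.3 and 19.2 FPKM in wild-type libraries 1, 2 and 4. It was lower in hdt1 in each numbered library, but library 1 was high in both genotypes and the groups overlapped. Its log2 fold change was -0.995 ± 0.593 (SE, adjusted p 0.485 by limma). It was -0.83 within library 1 and -1.08 within libraries 2 and 4, FPKM ratios of 0.554 and 0.449. With the library split as a term the SE was 0.11 and the adjusted p was 0.0254 by limma. PR5 was the only member called in that fit. The call was not made with a block by library number (unadjusted p 0.0011, adjusted p 0.149 by limma) or with libraries 2 and 4 averaged to 1 sample (unadjusted p 0.255, adjusted p 1 by limma). Each of these fits called 0 of all genes. Its neighbours TLP-3 and AT1G75050, 79.4% and 80% identical in coding bases, stayed at or below 1.81 FPKM in hdt1 and 1.45 FPKM in the wild type.

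**Figure D3:**
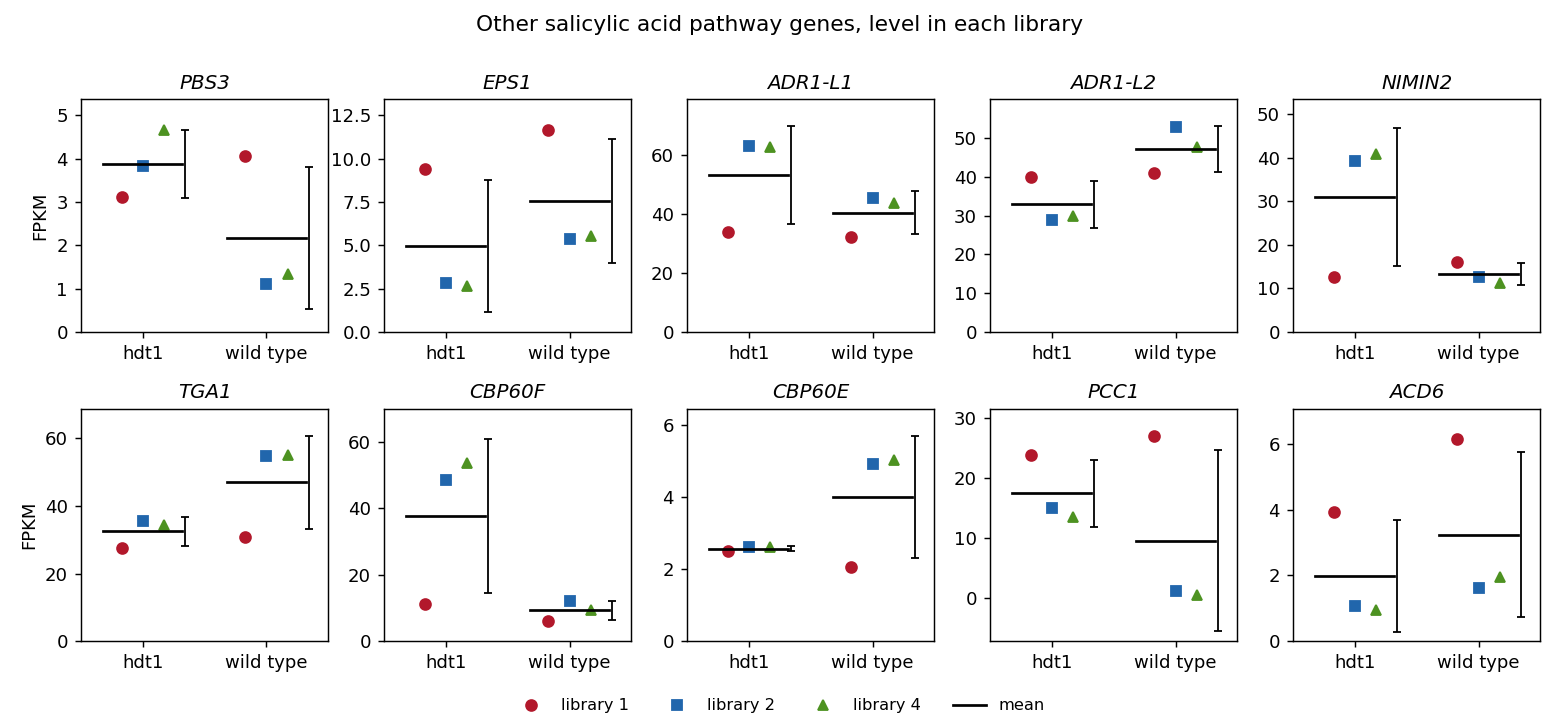
FPKM in each library of the gene with the most positive and the gene with the most negative log2 fold change of each of the 5 other pathway lists, with hdt1 left of the wild type. Points are libraries 1, 2 and 4, the line is the mean and the bar is the SD, which reaches below 0 for PCC1 in the wild type. CBP60F is higher in hdt1 in each numbered library, and NIMIN2, PBS3, PCC1 and CBP60E change order between library 1 and libraries 2 and 4.

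Of the 9 kept genes among other outputs of the hormone and of systemic resistance, 3 had the same sign within library 1 as within libraries 2 and 4, beside 56.2% of all genes. PCC1, a gene known to respond to pathogens, measured 23.9, 15.1 and 13.5 FPKM in hdt1, against 27.1, 1.14 and 0.498 FPKM in the wild type. ACD6, an ankyrin protein of salicylic acid signalling, measured 3.95, 1.06 and 0.934 FPKM in hdt1, against 6.15, 1.62 and 1.95 FPKM in the wild type, which was lower in hdt1 in each numbered library. LLP1 was higher at an unadjusted p under 0.05 in limma, and no other gene of the 9 kept passed in either direction. The shares of all genes were 7.78% higher and 5.96% lower.

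Over the 5 other lists together, 44 of 52 genes were kept, 25 with a positive and 19 with a negative log2 fold change. At an unadjusted p under 0.05, 3 were higher and 1 was lower in limma, beside 7.78% and 5.96% of all genes. The split term called 4, all higher, beside 6.34% of all genes. Their median log2 fold change was 0.05, beside -0.08 over all genes kept, and 22 of the 44 had the same sign within library 1 as within libraries 2 and 4, beside 56.2% of all genes kept.

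**Figure D4:**
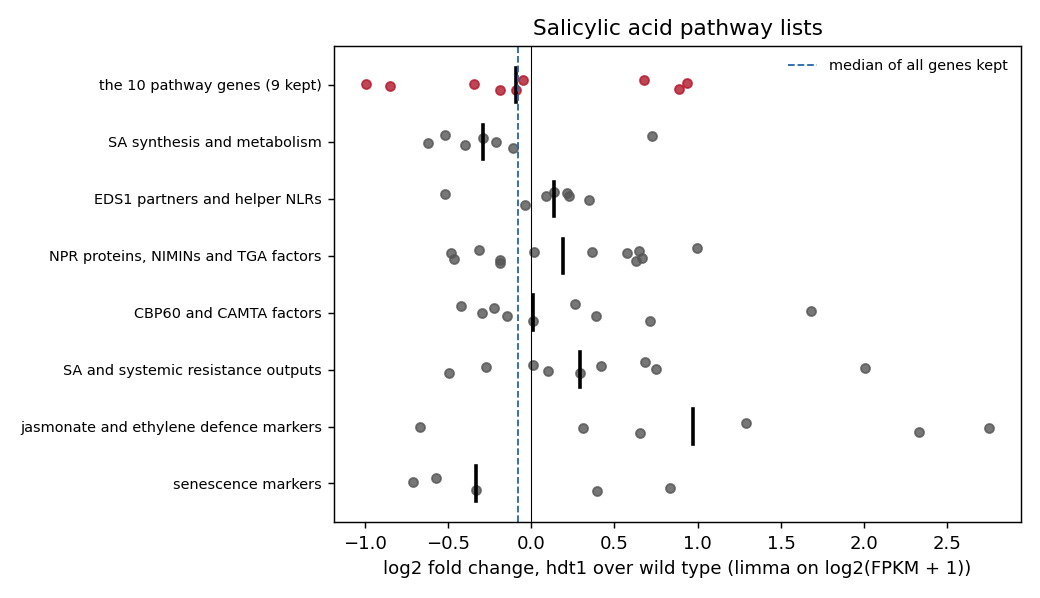
Log2 fold change, hdt1 over wild type, of each kept gene by list, with the black bar at the list's median and the dashed line at the median of all genes kept. The members have their median at -0.09, and each of the 5 other pathway lists holds genes on both sides of 0.

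The genes whose pattern over the 6 libraries lay nearest to that of 3 members are given as a description, by the root mean square difference of centred log2(FPKM + 1) values. Nearest to ICS1, whose log2 values spanned 1.42, were AT4G09890 (0.022), XF1 (0.045) and CRT1a (0.059). Nearest to SARD1, which spanned 0.30, were AT1G16690 (0.025), CNX7 (0.027) and AT1G71210 (0.029). Nearest to PR1, which spanned 1.82, were AGL12 (0.179), AT5G08760 (0.197) and AT1G34040 (0.219). No other member was among them.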

How the data were processed

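Stem RNA of 3 hdt1 and 3 wild-type libraries was sequenced, and the authors deposited FPKM values per gene, which the study's methods call RPKM. Per the submitters' notes, TopHat2 2.0.12, Bowtie2 2.2.3 and HTSeq 0.6.1 took part in the processing. Neither build nor strand setting is stated in the sources used here. Columns named H1 were taken as hdt1 and columns named WT as wild type.

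Whole reads were recovered for all 25374 features above 0 (100% whole, relative tolerance 1e-09), as the smallest whole numbers that fit each gene's FPKM steps, so a factor common to a gene's 6 counts is lost and the totals, 40104563 to 44781274 per library, are lower bounds. The 17906 genes that reached 1 FPKM in 3 or more libraries were tested on log2(FPKM + 1) with limma 3.58.1 in R 4.3.3 (empirical Bayes with trend, genotype only, Benjamini-Hochberg over all genes kept, two-sided), and fold changes are on that scale, which understates those of low genes. limma voom on the recovered reads was an alternative, and called 0 genes. The steps were tested on simulated data. With 3 against 3 libraries an exact permutation test cannot go below 0.1, so none is given for single genes.

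Deviations from the group means correlated between equal library numbers (r = 0.562, 0.533 and 0.46 for 1, 2 and 4). Libraries 2 and 4 correlated as well across numbers (0.514 and 0.536). These values match library 1 with library 1, but do not pair 2 with 2 and 4 with 4. The block by library number assumes those pairs. For libraries 2 and 4 the median chi-square per gene was 2.36 in hdt1 and 2.21 in the wild type. It was 0.455 from counting alone and 38.4 to 40.0 against library 1. They differed by more than counting noise and were kept apart, but whether they are separate biological samples cannot be told, and an alternative counted them as 1 sample.

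The text names all 10 members with each value, from each other list the kept genes with the largest positive and negative log2 fold change, where it had one, near copies of members, HDT1 as a check of the labels, and the 3 genes nearest in pattern to PR1, ICS1 and SARD1. DMR6, BSMT1, UGT76B1, NPR3, NIMIN3, CBP60A, LLP1, SAG12 and other markers were named after their values were seen. The members, lists and library split were chosen with earlier results of these data known. Promoter windows come from TAIR10.1 (RefSeq), where 32835 identifiers of the table have a locus.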

Additional observations from a re-analysis of the deposited data

How the results depend on the processing

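The count of genes called by limma was 0 in the fit as reported, 1135 with the library split as a term, 11809 on libraries 2 and 4 alone, and 1748 by voom on recovered reads with the split. It ranged from 0 to 1994 when 1 library was left out, with 1994 without hdt1 library 1 and 1136 without wild-type library 1. Members called numbered 0 as reported, 1 with the split (6.34% of all genes) and 7 on libraries 2 and 4 alone (65.9%). They numbered 1 by voom with the split, beside 1748 of 17906 genes, and 0 to 2 with 1 library left out. Without hdt1 library 1 EDS5 was called (log2 fold change 1.18, adjusted p 0.0205 by limma), beside 1994 of 17906 genes. Without wild-type library 1 ICS1 (1.16, adjusted p 0.0406 by limma) and PAD4 (-1.27, adjusted p 0.032 by limma) were called, beside 1136 of 17906 genes. Of 10 members, those whose genotypes did not overlap numbered 3 as reported (19.4% of all genes kept), 2 under median-ratio scaling (18.6%) and under quantile normalization (20.1%), where SARD1 overlapped, 9 on libraries 2 and 4 alone (83.2%), and 3 to 8 with 1 library left out, with 8 without hdt1 library 1 (56.1%) and 6 without wild-type library 1 (50.7%). These shares are over the genes kept, which leave out PR1, whereas the 9 and the 8 each include PR1. CBP60G turned sign under median-ratio scaling (0.027) and ranged from -0.122 to 0.043 with 1 library left out, turning sign without hdt1 library 1. The cause of these changes was not tested. Leaving out library 2 or 4 of either genotype, which also takes 1 library from a group, called 0 genes. The replicate block, by library number, called 0 genes and changed no call of the fit as reported, but PR5, called with the split, was not called with the block (adjusted p 0.149). Averaging libraries 2 and 4, chosen after seeing the data, also called 0. PR1 rests on at most 82 reads, so its values are limited by depth.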

Other observations

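Jasmonate and ethylene pathways often oppose salicylic acid. Of the 6 kept genes of their defence list, 4 had the same sign within library 1 as within libraries 2 and 4, beside 56.2% of all genes. THI2.1, a thionin gene, measured 2.16, 69.4 and 76.4 FPKM in hdt1 libraries 1, 2 and 4, against 1.91, 4.15 and 2.75 FPKM in wild-type libraries 1, 2 and 4. PR4, a chitin-binding protein, measured 389.6, 87.2 and 88.3 FPKM in hdt1, against 613.4, 140.1 and 140.8 FPKM in the wild type. Over the kept genes, 6 of 8, the median log2 fold change was 0.97, with 0.05 within library 1 and 1.41 within libraries 2 and 4. At an unadjusted p under 0.05 in limma 0 of them passed, beside 7.78% of all genes higher and 5.96% lower. The split term called 1, PR4, lower (adjusted p 0.0276 by limma), beside 6.34% of all genes. PR4 was not called with the block by library number (adjusted p 0.152 by limma). The senescence gene SAG13 measured 257, 299 and 299 FPKM in hdt1, against 263, 122 and 125 FPKM in the wild type. NAP, a NAC factor of leaf senescence, measured 23.6, 9.47 and 11.1 FPKM in hdt1, against 13.3, 29.9 and 29.7 FPKM in the wild type.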
